A study of Mus musculus with 7 samples.

Results

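The genes of cholesterol and fatty acid synthesis that are controlled by the sterol regulatory element binding proteins (SREBPs), together with genes of sterol export, were followed in explants of the mouse epicardium with and without lamin B1. The module held 37 genes, chosen by name from the 22738 gene rows of the count tables, with earlier results of these data known. It divides into 5 regulators, 17 sterol genes attributed to SREBP2, 9 fatty acid genes attributed to SREBP1 and 6 genes of sterol export and egress. Epicardial cells cover the surface of the heart and crawl out of ventricles that are laid on gelatin. In this study the ventricles of E12.5 hearts were left on the dish for 48 hours and removed, and the outgrowth was cultured for 72 hours more without treatment. RNA was sequenced from 4 wild type and 3 Lmnb1-/- explant libraries, all of a mixed C57BL/6, 129S4Sv/Jae and 129S6/SvEvTac background. Lmnb1-/- embryos lack Lmnb1, which encodes a protein of the nuclear lamina, in every cell and not only in the epicardium. Replicates are numbered in the labels, with nothing on whether each is its own embryo, litter or pool. The p-values therefore measure the spread between these libraries, which may be partly technical.

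SREBPs are transcription factors that are made as membrane proteins of the endoplasmic reticulum. When sterols are scarce, Scap carries them to the Golgi, where proteases release the active part; when sterols are plentiful, Insig proteins hold Scap back. SREBP2, the product of Srebf2, chiefly drives genes of cholesterol synthesis, and SREBP1, the product of Srebf1, chiefly drives genes of fatty acid synthesis. Excess sterol is moved the other way by exporters under the liver X receptors, which are nuclear receptors for oxidised cholesterol. SREBPs bind sterol regulatory elements in promoters and commonly act with the neighbouring factors NF-Y and Sp1.

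Stretches of promoter are shown for 5 members because the SREBP genes are defined by such elements. Srebf2 is one of the members that fell, Hmgcs1 has the only full-length match to the element among the windows searched, Mvk and Mvd are enzymes of the mevalonate pathway with levels below wild type, and Elovl6 is the only fatty acid gene with a level above it. The sequences are RefSeq's, on build GRCm38.p6, and read 5′ to 3′ on the gene's strand. Positions count back from -1, the base before the RefSeq start, and bases that GENCODE places inside a transcript of the gene were left out. Capitals mark the sterol regulatory element TCACNCCAC or its shorter core TCACNCC, the NF-Y box CCAAT and the GC box GGGCGG that Sp1 binds, on either strand.
Srebf2 (chr15:82147019-82147180, plus strand, positions -250 to -89): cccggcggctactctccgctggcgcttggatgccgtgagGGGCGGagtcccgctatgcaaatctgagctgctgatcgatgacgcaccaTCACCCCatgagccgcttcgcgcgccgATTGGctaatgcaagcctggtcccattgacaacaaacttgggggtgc
Hmgcs1 (chr13:119690171-119690350, plus strand, positions -180 to -1): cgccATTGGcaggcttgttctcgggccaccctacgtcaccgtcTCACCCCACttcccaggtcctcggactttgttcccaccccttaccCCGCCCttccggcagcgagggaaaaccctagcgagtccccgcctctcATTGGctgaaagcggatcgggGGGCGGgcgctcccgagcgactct
Mvk (chr5:114444089-114444268, plus strand, positions -180 to -1): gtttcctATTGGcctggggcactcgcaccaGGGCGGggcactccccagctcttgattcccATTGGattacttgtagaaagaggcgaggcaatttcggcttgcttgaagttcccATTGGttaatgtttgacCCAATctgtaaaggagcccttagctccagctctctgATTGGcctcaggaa
Mvd (chr8:122443423-122443602, minus strand, positions -180 to -1): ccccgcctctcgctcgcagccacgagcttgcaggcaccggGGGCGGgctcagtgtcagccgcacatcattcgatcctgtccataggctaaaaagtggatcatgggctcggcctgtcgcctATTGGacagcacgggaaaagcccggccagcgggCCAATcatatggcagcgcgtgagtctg
Elovl6 (chr3:129532136-129532354, plus strand, positions -250 to -32): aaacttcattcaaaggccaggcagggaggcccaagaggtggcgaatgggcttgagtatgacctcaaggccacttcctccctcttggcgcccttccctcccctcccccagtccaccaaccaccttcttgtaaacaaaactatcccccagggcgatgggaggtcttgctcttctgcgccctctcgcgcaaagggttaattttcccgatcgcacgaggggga

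In Hmgcs1 the full element starts at position -137, and NF-Y boxes on the opposite strand start at positions -176 and -45. Before the printed stretch its window also has a core at position -220 and an NF-Y box at position -237. Srebf2 has the core at position -162 and an NF-Y box on the opposite strand at position -135. The Mvk window has 5 NF-Y boxes, of which the nearest to the start is at position -14. The stretch of Elovl6 has none of these motifs. At least 1 window of 250 bases before a start was found for 28 of the 37 members, 75.7%. Some genes have several starts, and a match in any window counts. The share is under 80%, so a comparison of the module with other genes is void and the counts describe these windows only. Shares over other genes stand beside them for scale, and no enrichment or depletion is read from them. The windows of Fdps, Fdft1, Sqle, Stard4, Scd1, Scd2, Fads1, Abcg1 and Npc1 were not analysed here. The NF-Y box was found in 12 of 13 sterol genes, 4 of 5 regulators, 2 of 6 fatty acid genes and 2 of 4 export genes, while 37.5% of all genes in the table and 41.0% of those tested here have it. The GC box was found in 12 of 13 sterol genes, 5 of 5 regulators, 3 of 6 fatty acid genes and 3 of 4 export genes, against 35.4% of all genes and 66.9% of those tested. The full element was found in 1 of the 28 members, in 1.22% of all genes and in 1.16% of those tested. The core, which lies within it, was found in 4 of the 28, in 15.1% of all genes and in 16.5% of those tested. The E-box CANNTG, a second kind of SREBP site, was found in 16 of the 28, in 69.3% of all genes and in 60.4% of those tested. These are matches of letters within one window, not measured binding sites.

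The libraries held 1024898 to 3066936 counts, so that 1 count was worth 0.322 to 1.03 CPM, the unit of all levels below. CPM here are counts scaled to a common library size, with totals adjusted by TMM, a method that assumes most genes do not change. Lmnb1, the targeted gene, had 463, 185, 488 and 567 counts in wild type and 4, 2 and 4 in Lmnb1-/- libraries, in keeping with the labels. Epicardial marker genes were present in both groups, with summed levels of 3257 to 4202 CPM across wild type libraries and 2799 to 3419 CPM across Lmnb1-/- ones over 15 genes. Of 37 members, 34 had enough counts to be tested with edgeR's quasi-likelihood test across 10775 genes, with Benjamini-Hochberg adjustment over all of them and a threshold of 0.05. Fold changes are Lmnb1-/- over wild type on the log2 scale. The labels do not give sex. By Xist and Y-linked counts, wild type replicates 1 and 3 were female and all other libraries male.

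Among the members Srebf2 and Stard4 fell in Lmnb1-/- explants, and none rose. These 2 of 34 tested members compare with 0.705% of all tested genes called, 0.343% lower and 0.362% higher. In all, 31 of the 34 were below 0, with a median log2 difference of -0.37, whereas the median of all tested genes was -0.02 and 52.4% of them were below 0. The ranges of the groups did not overlap for 13 of the 34 members, all of them lower in Lmnb1-/- explants, where 6.92% of all tested genes were apart in that direction and 6.36% in the other. Without adjustment 14 of the 34 had a p under 0.05 by edgeR, all lower, against 7.43% of all tested genes lower and 6.2% higher. Because the members were chosen with earlier results of these data known, these counts and shares are a description and not a test. In whole explants, fewer cells of a type and less RNA per cell cannot be told apart.

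Srebf2 fell to 57.3% of its wild type level. Its level was 77.4, 96.1, 90.8 and 85.6 CPM across wild type replicates 1 to 4, and 49.2, 51.0 and 49.3 CPM across Lmnb1-/- replicates 1 to 3. The groups were far apart, and the Lmnb1-/- libraries lay within 2 CPM of each other. The log2 fold change was -0.80 (SE 0.13, adjusted p = 0.0193 by edgeR). Srebf1, which encodes the other SREBP, was at 69.6, 70.3, 59.5 and 53.6 CPM across wild type libraries and 57.6, 60.6 and 61.7 CPM across Lmnb1-/- ones. These ranges overlapped, and the log2 fold change was -0.07 with a 95% interval of -0.37 to 0.23, so a decrease as large as that of Srebf2 lies outside it. The ratio of Srebf2 to Srebf1 counts, which does not depend on scaling, was 1.11, 1.37, 1.53 and 1.60 in wild type and 0.855, 0.843 and 0.800 in Lmnb1-/- libraries. All 3 Lmnb1-/- ratios were below all wild type ratios. An exact two-sided permutation test of the mean log2 ratio over the 35 divisions of the libraries gave p = 0.0571, where the smallest possible p is 0.0286, so the difference between the 2 genes did not pass.

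The remaining regulators were lower or level without passing the test. Insig1, itself a target of SREBPs and the retention factor that responds most to sterol supply, was at 78.3, 61.0, 95.3 and 71.7 CPM across wild type libraries and 48.2, 56.1 and 52.4 CPM across Lmnb1-/- ones. The ranges did not overlap, and the log2 fold change of -0.58 (SE 0.16) had an adjusted p of 0.117 by edgeR. Insig2, the related retention factor, was at 35.7, 33.1, 42.2 and 38.4 CPM across wild type libraries and 29.9, 30.8 and 40.6 CPM across Lmnb1-/- ones, which overlapped. Scap, the escort protein gene, was at 68.7, 67.2, 55.0 and 62.4 CPM across wild type libraries and 62.7, 43.7 and 54.0 CPM across Lmnb1-/- ones, and these overlapped too. Their log2 fold changes were -0.17 and -0.22, with 95% intervals of -0.53 to 0.19 and -0.56 to 0.11.

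**Figure D1:**
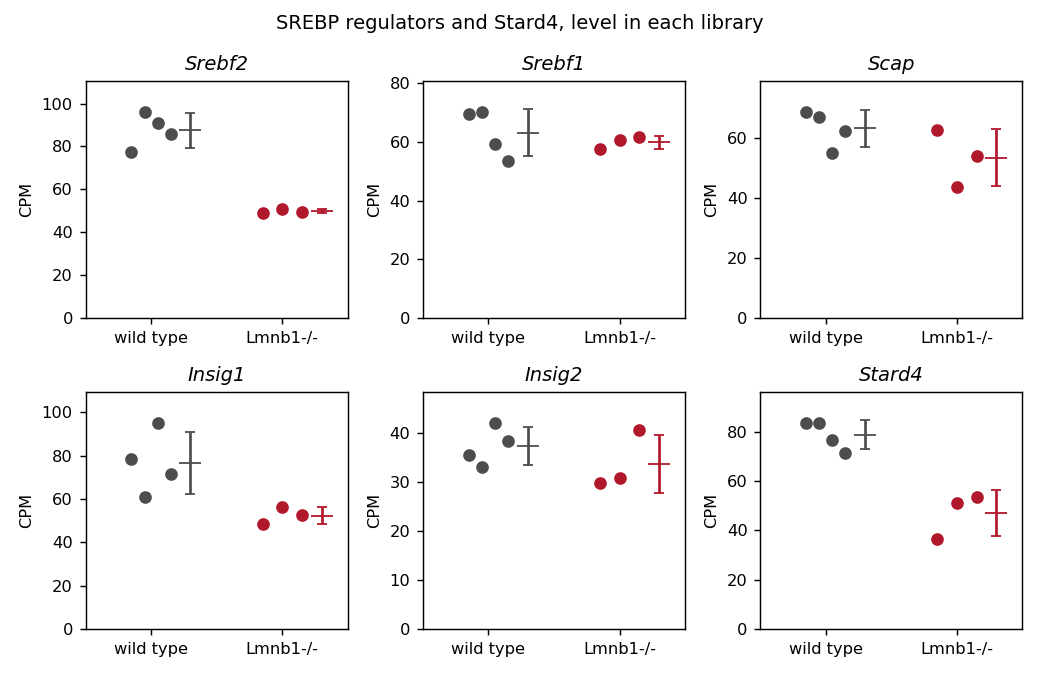
Level in CPM (y axis) of the 5 SREBP regulators and Stard4 in each library, with wild type in grey (4 libraries) and Lmnb1-/- in red (3 libraries); dashes with bars are the mean and SD. The groups are apart for Srebf2, at 77.4 to 96.1 against 49.2 to 51.0 CPM, for Insig1 and for Stard4, and overlap for Srebf1, Scap and Insig2.

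The call of Srebf2 rested on most of the libraries. It was lost without wild type replicate 3 (adjusted p = 0.0873 by edgeR) and without Lmnb1-/- replicate 1, 2 or 3 (0.114, 0.113 and 0.0750), while the log2 fold change stayed between -0.86 and -0.76 on leaving out any library.

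Among the genes of sterol synthesis and transport Stard4 fell, and the rest had log2 fold changes of the same sign, some as large as that of Stard4, without passing the test. All 14 tested members of the 17 had log2 fold changes below 0, with a median log2 difference of -0.55. In the first count column 9 of the 14 had ranges that did not overlap, where 6.92% of all tested genes were apart and lower. Stard4 encodes a carrier that moves cholesterol through the cytosol and is a known SREBP2 target. Its level was 83.5, 83.7, 76.8 and 71.3 CPM across wild type libraries and 36.3, 51.0 and 53.4 CPM across Lmnb1-/- ones. The highest Lmnb1-/- library stayed below the lowest wild type library, with replicate 1 the lowest of all. The log2 fold change was -0.76 (SE 0.16, adjusted p = 0.0481 by edgeR). The call held without wild type replicate 1 (adjusted p = 0.0422) and was lost without any other library. The adjusted p was 0.0712, 0.117 and 0.0833 without wild type replicates 2, 3 and 4, and 0.200, 0.177 and 0.0986 without Lmnb1-/- replicates 1, 2 and 3, all by edgeR.

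Of the other sterol genes, Fdft1, Sqle and Hsd17b7 had the smallest p-values. Fdft1, squalene synthase, was at 43.9, 41.3, 61.0 and 45.1 CPM across wild type libraries and 23.8, 32.5 and 27.2 CPM across Lmnb1-/- ones. Sqle, the squalene epoxidase and a rate-limiting step, was at 86.6, 89.9, 109 and 105 CPM across wild type libraries and 62.4, 77.4 and 54.0 CPM across Lmnb1-/- ones. Hsd17b7, a ketoreductase of the later steps, was at 46.1, 37.2, 54.2 and 50.2 CPM across wild type libraries and 36.7, 28.6 and 23.1 CPM across Lmnb1-/- ones. None of the 3 overlapped between groups, although the gap was narrow for Hsd17b7. Their log2 fold changes were -0.81 (SE 0.18), -0.61 (SE 0.15) and -0.67 (SE 0.19), and their adjusted p-values were 0.0687, 0.0835 and 0.127 by edgeR, so they did not pass. Fdft1 and Sqle passed without wild type replicate 1, at adjusted p = 0.0370 and 0.0385 by edgeR. Without that library 279 genes passed in all, against 76 with every library. On leaving out any other library neither gene passed, with adjusted p up to 0.270 and 0.295 by edgeR.

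Along the order of the pathway, the mevalonate enzymes Mvk, Pmvk, Mvd and Fdps had log2 fold changes of -0.52, -0.50, -0.71 and -0.52. Mvk, mevalonate kinase, was the most even of them, at 32.5 to 37.8 CPM across wild type libraries and 25.1 to 25.8 CPM across Lmnb1-/- ones. After squalene, Lss, which closes the sterol rings, was at -0.47, Cyp51, the lanosterol demethylase, at -0.58, and Nsdhl, which acts in the removal of other methyl groups further on, at -0.81. The ranges of Lss and Nsdhl did not overlap, but the gaps were narrow. The highest Lmnb1-/- and lowest wild type levels were 38.6 and 39.3 CPM for Lss and 9.65 and 10.3 CPM for Nsdhl. The 95% interval of Nsdhl was -1.52 to -0.09. The ranges of Cyp51 overlapped, with 141 CPM in Lmnb1-/- replicate 2 and 137 CPM in wild type replicate 2. At the end of the pathway Ebp, the sterol isomerase, was at -0.04 with a 95% interval of -0.57 to 0.48, and Dhcr7, the last reductase, at -0.34 with an interval of -1.08 to 0.40. Acat2, which makes the first intermediate, was at -0.35 with an interval of -0.87 to 0.17. For these 3 and Pmvk the ranges overlapped. No gene of this paragraph passed the test.

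**Figure D2:**
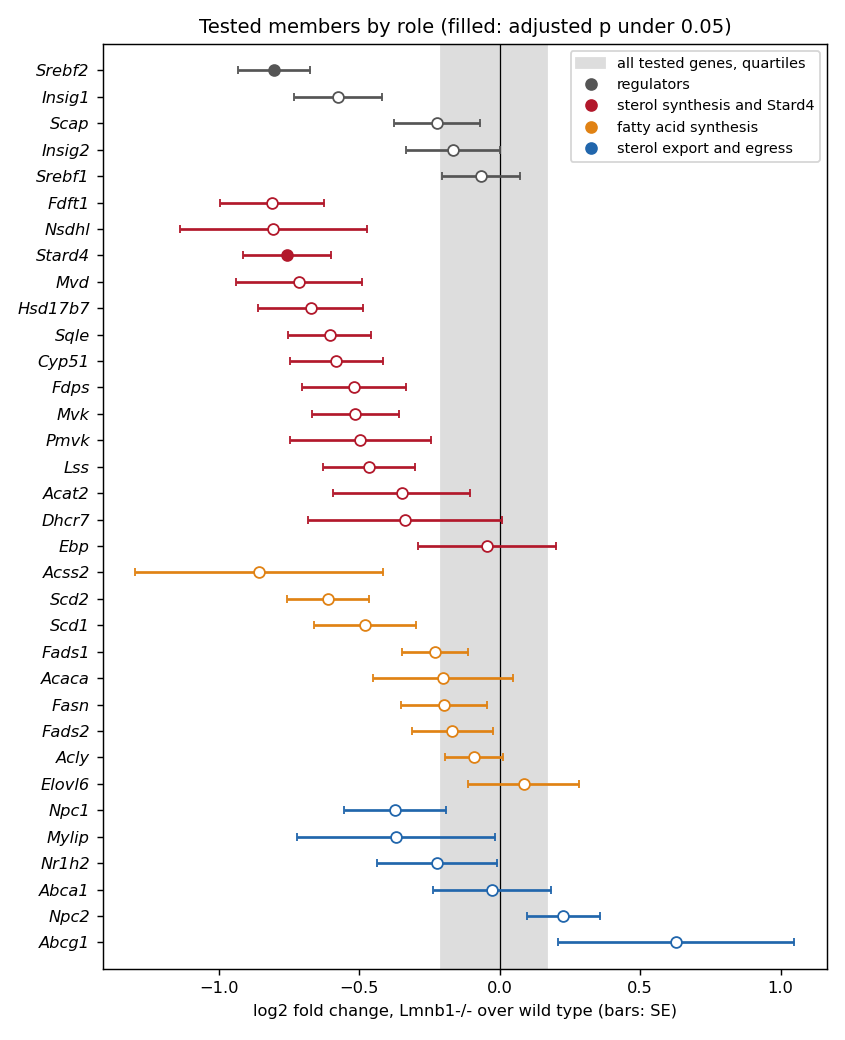
Log2 fold change of Lmnb1-/- over wild type (x axis) with its SE for the 34 tested members (y axis), coloured by role; filled points passed at an adjusted p under 0.05, and the grey band spans the quartiles of all tested genes. Srebf2 and Stard4 are filled, all 14 sterol genes lie below 0, and export genes lie on both sides of it.

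Of the sterol genes, 3 were not tested. Hmgcs1, the synthase that starts the mevalonate pathway, appears in 2 rows and is listed at 0 in every library, so these tables give no level for it. Tm7sf2, a sterol reductase, had 7, 2, 8 and 11 counts in wild type and 3, 5 and 4 in Lmnb1-/- libraries, too few to compare. Idi1, the isopentenyl diphosphate isomerase, had 8, 2, 5 and 0 counts in wild type and 3, 0 and 3 in Lmnb1-/- libraries in the first count column. Its second column held 97.5% of its counts, 123, 38, 206 and 172 in wild type and 114, 91 and 80 in Lmnb1-/- libraries. That column is unnamed and was read, from its values, as reads that match several places in the genome. With both columns summed Idi1 was at 46.5, 33.8, 64.7 and 59.2 CPM across wild type libraries and 30.9, 41.5 and 35.0 CPM across Lmnb1-/- ones, which overlapped. The log2 fold change was -0.56 (SE 0.20, adjusted p = 0.256 by edgeR).

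The same column held 74.5% of the counts of Acat2, 70.1% of Fdps, 70.0% of Acaca, 39.4% of Insig1 and 34.4% of Fdft1, so the levels of these 5 in the first column are underestimates and uncertain. With both columns the log2 fold change of Acat2 went from -0.35 to -0.06 and that of Fdps from -0.52 to -0.36. The ranges of Fdps then overlapped, at 68.9 to 114 CPM across wild type libraries and 55.7 to 82.6 CPM across Lmnb1-/- ones. Acaca went from -0.20 to -0.33, while Fdft1 and Insig1 stayed at -0.78 and -0.55. The other members had at most 16.9% of their counts there, the share of Scd1.

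Genes of fatty acid synthesis differed less, and none passed the test. Of 9 members 8 were below 0, with a median log2 difference of -0.20. The ranges did not overlap for 2 of the 9, the desaturase genes Scd1 and Scd2, where 6.92% of all tested genes were apart and lower. Scd2 makes monounsaturated fatty acids in most embryonic tissues and was at 245, 276, 319 and 251 CPM across wild type libraries and 185, 213 and 138 CPM across Lmnb1-/- ones. Scd1, the related enzyme known from liver and fat, was at 47.0, 48.6, 68.5 and 46.8 CPM across wild type libraries and 34.7, 34.8 and 45.2 CPM across Lmnb1-/- ones. All Lmnb1-/- libraries were below all wild type libraries for both, by a small margin in the case of Scd1. The log2 fold changes were -0.61 (SE 0.15) and -0.48 (SE 0.18), with adjusted p-values of 0.0807 and 0.268 by edgeR. Scd2 passed without wild type replicate 1 (adjusted p = 0.0438 by edgeR) and not on leaving out any other library (up to 0.2535).

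The core synthetic enzymes did not pass the test either. Fasn, fatty acid synthase, was at 178 to 288 CPM across wild type libraries and 169 to 227 CPM across Lmnb1-/- ones, with a log2 fold change of -0.20 (95% interval -0.53 to 0.13). Acly, which supplies cytosolic acetyl-CoA, was at 241 to 283 and 224 to 257 CPM, with a log2 fold change of -0.09 (95% interval -0.31 to 0.13). Acaca, acetyl-CoA carboxylase, and the elongase gene Elovl6 were at -0.20 and 0.08 with wide intervals of -0.73 to 0.33 and -0.34 to 0.51. All 4 overlapped between groups in the first count column. With both columns summed, which matters for Acaca because most of its counts lie in the second, Acaca was at 58.3 to 66.4 CPM across wild type libraries and 47.2 to 50.9 CPM across Lmnb1-/- ones, which did not overlap. Its log2 fold change was then -0.33 (SE 0.12, adjusted p = 0.256 by edgeR).

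Fads1, a desaturase of polyunsaturated fatty acids, was at 129, 148, 139 and 137 CPM across wild type libraries and 111, 136 and 106 CPM across Lmnb1-/- ones, which is a log2 fold change of -0.23 with an SE of 0.12 (adjusted p = 0.416 by edgeR). Its partner Fads2 was at -0.17. Acss2, which makes acetyl-CoA from acetate, was scarce, at 4.35, 5.17, 4.90 and 10.1 CPM across wild type libraries and 2.89, 5.05 and 2.57 CPM across Lmnb1-/- ones, and its log2 fold change of -0.86 had an SE of 0.44. The ranges of these 3 overlapped, and wild type replicate 4 was far above the rest for Acss2.

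Genes of sterol export and egress showed no common direction, and none passed the test. Of 6 members 4 were below 0 and 2 above, with a median log2 difference of -0.13, and no range was apart. Abca1, the main exporter of cholesterol to lipoproteins, was at 75.2 to 146 CPM across wild type libraries and 106 to 143 CPM across Lmnb1-/- ones, with a log2 fold change of -0.03 (95% interval -0.50 to 0.44). Its counterpart Abcg1 was scarce, at 2.61, 2.07, 4.14 and 7.59 CPM across wild type libraries and 6.43, 8.41 and 5.65 CPM across Lmnb1-/- ones, which is a log2 fold change of 0.63 with an SE of 0.42 (adjusted p = 0.542 by edgeR). Wild type replicate 4 lay among the Lmnb1-/- libraries. Mylip encodes a ubiquitin ligase that removes lipoprotein receptors and was at 6.52, 5.17, 9.04 and 8.86 CPM across wild type libraries and 3.86, 7.85 and 6.68 CPM across Lmnb1-/- ones. Nr1h2, the widely expressed liver X receptor gene, was at -0.22 with a 95% interval of -0.68 to 0.24.

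Npc1, the membrane transporter lost in Niemann-Pick type C disease, was at 63.9, 59.9, 51.2 and 43.0 CPM across wild type libraries and 50.2, 39.3 and 34.4 CPM across Lmnb1-/- ones. Npc2, the soluble carrier that hands cholesterol to it, was at 250, 302, 374 and 293 CPM across wild type libraries and 335, 397 and 339 CPM across Lmnb1-/- ones. Both overlapped. The log2 fold changes were -0.37 (SE 0.18) and 0.23 (SE 0.13), with adjusted p-values of 0.385 and 0.470 by edgeR.

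**Figure D3:**
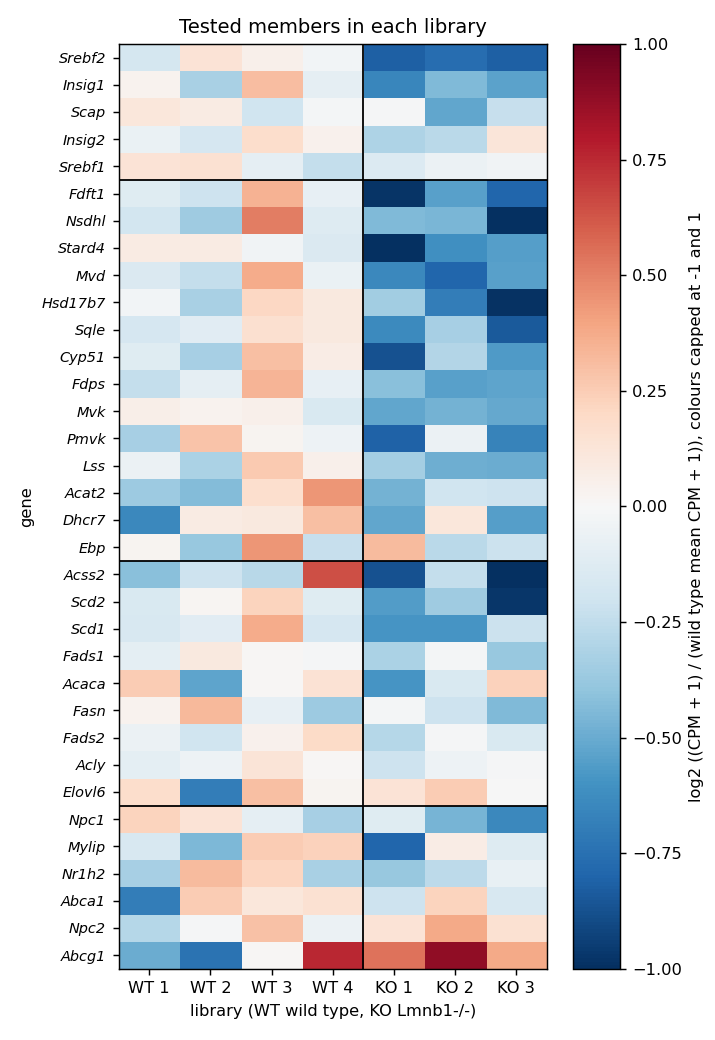
Log2 ratio of each library's level to the wild type mean, with 1 CPM added to both, for the 34 tested members (rows, grouped by role from regulators at the top to export at the bottom) in the 7 libraries (columns), with colours capped at -1 and 1. The sterol rows are blue in nearly all Lmnb1-/- columns and warmest in wild type replicate 3, while the export rows have no common colour by group.

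Per kilobase of exon, levels within wild type spanned a wide range. Npc2 was the most abundant member, at 92.3 CPM per kilobase on average, followed by Acly at 56.2, Scd2 at 50.0, Cyp51 at 44.0, Fads1 at 39.9 and Sqle at 35.3. Acly, with 52.4 to 61.4 over the 4 libraries, overlapped Scd2, with 45.0 to 58.5, and Scd2 overlapped Cyp51, with 35.0 to 54.4. On the same scale Srebf2 was at 17.2, with 15.2 to 18.9 over the libraries, and Srebf1 at 14.7, with up to 16.3, so these overlapped. Acss2 at 1.61 and Abcg1 at 0.601 were the lowest of the tested members. These levels are of the first count column, where Fdps was at 22.7. With 70.1% of its counts in the second column, Fdps may be placed too low, as may other members with counts there. Exon lengths came from the GENCODE annotation of another build, so this order is approximate.

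Set side by side, the role groups differed in how far the libraries were apart. For the 14 sterol genes, the median difference from the wild type mean on the log2 scale was -0.11, -0.21, 0.25 and -0.04 for wild type replicates 1 to 4 and -0.50, -0.45 and -0.54 for Lmnb1-/- replicates 1 to 3. Summed, these genes took 623, 593, 787 and 681 CPM across wild type libraries and 424, 502 and 431 CPM across Lmnb1-/- ones. Wild type replicate 3 was the highest of the wild type libraries for 9 of the 14. For the 9 fatty acid genes the medians were -0.10, -0.10, 0.05 and 0.02 in wild type and -0.32, -0.12 and -0.20 in Lmnb1-/- libraries. Lmnb1-/- replicate 1 was the farthest from wild type in that group. These medians did not overlap, nor did the sums, at 1009.5 to 1156.4 CPM across wild type libraries and 829.87 to 955.75 CPM across Lmnb1-/- ones. For the 5 regulators the medians were 0.05, 0.09, 0.06 and -0.03 in wild type and -0.31, -0.42 and -0.22 in Lmnb1-/- libraries, also apart. For the 6 export genes they were -0.29, 0.08, 0.20 and 0.08 in wild type and -0.13, 0.19 and -0.07 in Lmnb1-/- libraries, fully overlapping. Whether the groups differ from each other in their response was not tested, since their genes are not independent.

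**Figure D4:**
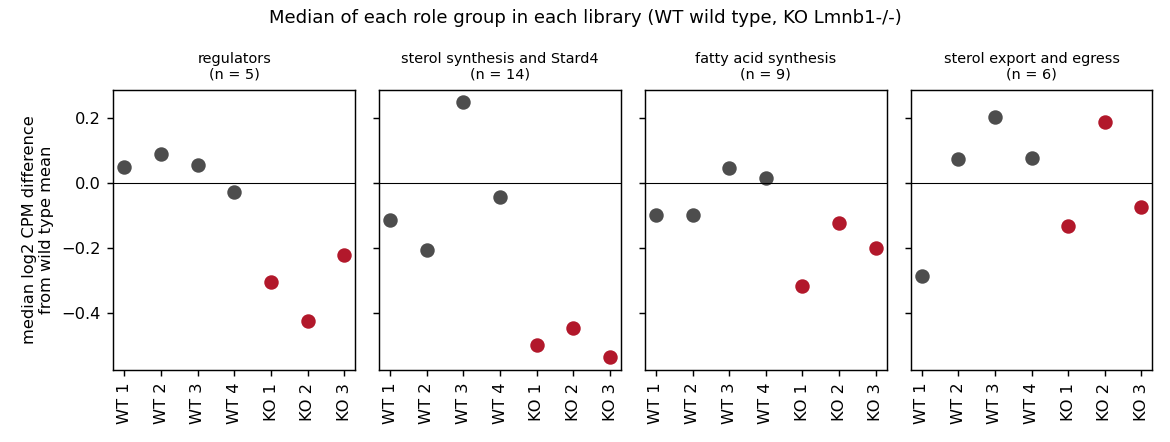
Median over the tested genes of each role group of the log2 CPM difference from the wild type mean (y axis), for each library (x axis; grey wild type, red Lmnb1-/-). Sterol genes lie at -0.45 to -0.54 in the Lmnb1-/- libraries and at -0.21 to 0.25 in wild type. Regulators and fatty acid genes are also apart, and export genes overlap between groups.

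The labels give no batch, but the deposited names carry library numbers, and the differences were also computed among libraries with neighbouring numbers. Wild type replicate 1 and Lmnb1-/- replicate 1 are neighbours, as are wild type replicate 4 and Lmnb1-/- replicates 2 and 3. Wild type replicates 2 and 3 have no Lmnb1-/- neighbour and were left out here. The first set holds 1 library of each genotype. By Xist and Y-linked counts its wild type library was female and the other male, so sex and genotype cannot be told apart in it. For the sterol genes the median log2 difference was -0.40 in the first set, with 12 of 14 below 0, and -0.53 in the second, with 14 of 14 below 0. For Srebf2 it was -0.64 and -0.76, and for Stard4 it was -1.18 and -0.44. For the fatty acid genes it was -0.23 and -0.18, and for the export genes 0.19 and -0.12, which is a change of sign. Within male libraries alone the medians of the sterol, fatty acid and export genes were -0.54, -0.20 and -0.23. Srebf2 passed there and with sex as a covariate, whereas Stard4 did not (adjusted p = 0.115 and 0.136 by edgeR). All Lmnb1-/- libraries were male, so sex and genotype can be told apart only through the male wild type libraries, replicates 2 and 4.

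Further genes of the pathway that are not members were counted from lists by role, and none passed the test. Of 12 further genes of sterol and isoprenoid synthesis, 5 were below 0 and 7 above. Ranges did not overlap for 3 lower and 3 higher genes, where 6.92% and 6.36% of all tested genes were apart. The list holds isoprenoid genes and binding proteins beside sterol enzymes, so this split does not describe the sterol enzymes alone. The sterol enzyme genes Msmo1 and Sc5d, named after their values were seen, were at -0.81 and -0.27. Their ranges overlapped for Msmo1 and were apart for Sc5d. The 7 genes above 0 were Acat1, Ggps1, Tmem97, Aacs, Pgrmc1, Nus1 and Pdss1. Pgrmc1, a haem protein that binds sterol enzymes, averaged 503 ± 6.31 CPM over the wild type libraries (SD, n = 4) and 639 ± 26.2 CPM over the Lmnb1-/- ones (SD, n = 3), a log2 fold change of 0.35. Of 13 tested genes of SREBP processing and turnover 8 were below 0, with a median of -0.08, and those of smallest p were Faf2 at -0.36 and Gsk3b at -0.27. Of 21 tested genes of fatty acid and glycerolipid metabolism 16 were below 0, with a median of -0.20, and those of smallest p were Gpam at -0.38 and Acadl at -0.34. Of 21 tested genes of sterol transport, storage and receptors 15 were below 0, with a median of -0.10, and those of smallest p were Abca2 at -0.77 and Vldlr at -0.40.

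Markers of epicardial and other cells were measured beside these results. Smooth muscle and pericyte markers were also lower in Lmnb1-/- explants. All 16 tested of 20 were below 0, with a median log2 difference of -1.04, where 52.4% of all tested genes were below 0. Of the 16, 5 fell, against 0.343% of all tested genes. The 20 markers summed to 11425 to 13214 CPM across wild type libraries and 8751 to 9549 CPM across Lmnb1-/- ones. None of these 20 markers was listed at 0 in all libraries, and Tagln and Acta2 were the most abundant. The 10 genes of the cell cycle had a median of 0.42, with 9 above 0 and none called, and sums of 958 to 1825 and 1551 to 1691 CPM. Of the epicardial markers, 10 of 14 tested were below 0, with a median log2 difference of -0.26 and none called. Ranges were apart for 4 lower markers, Wt1, Aldh1a2, Bnc1 and Rspo1, and for 1 higher marker, Krt8, which were named after their values were seen. Over all tested genes, 6.92% were apart and lower and 6.36% apart and higher. No epicardial marker was listed at 0 in all libraries. The part of any of these lists in the lower sterol genes was not tested. Macrophage markers summed to 82.7 to 380 CPM across wild type libraries and 46.0 to 692 CPM across Lmnb1-/- ones, and endothelial markers to 62.2 to 89.2 and 65.8 to 89.7 CPM. Cardiomyocyte markers summed to 404 to 789 and 450 to 596 CPM, with Myl7 and Tnnt2 the most abundant and Myh7 listed at 0. All of these sums overlapped between groups. All 9 tested macrophage markers were above 0, with a median log2 difference of 0.91, none called and no range apart. Of 4 tested endothelial markers 2 were below 0 and 2 above, with none called. The 2 above, Kdr and Egfl7, also named after their values were seen, had ranges that did not overlap. Their log2 fold changes were 1.40 and 0.57. Of the tissues known for SREBP1 activity, adipocyte markers summed to at most 15.6 CPM, with Adipoq, Plin1, Cidec and Lep listed at 0. Of the hepatocyte markers Alb, Apoa1, Apoa2, Serpina1a and Fgb were listed at 0, and nearly all of the list's sum came from Trf, with means of 49.7 CPM for wild type and 66.2 CPM for Lmnb1-/-.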

How the data were processed

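Whole-explant RNA was sequenced in 4 wild type and 3 Lmnb1-/- libraries, prepared with TruSeq RNA v2 reagents, which do not keep strand, per the labels' protocols. TopHat, edgeR and build mm9 appear in the submitters' processing notes. For versions, annotation and counting program, details are not given in the sources used here. Every deposited table gives whole-number counts per gene name in 2 columns that are unnamed per the file headers; their unequal totals were read as no normalization. The first was used. Of 22738 rows, 649 repeat the name of an earlier row and were kept apart. Rows were filtered with filterByExpr, scaled by TMM and tested with edgeR 4.0.16 (glmQLFit, robust, no covariate; limma 3.58.1, R 4.3.3). The SE is the size of the log2 fold change divided by the root of F. Per-library medians used a prior count of 2. Replicates in each group differed beyond sampling noise (chi-square per degree of freedom 2.22 to 7.71). The procedure was tested on simulated data.

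Members, role groups and lists were chosen with earlier results of these data known. Values per library are given for the regulators, members past the threshold and the 4 of smallest p in each other role; further lists by their 2 of smallest p, of which 1 is not reported here. Alternatives were RLE factors, unscaled totals, no filter, 1 CPM in 3 libraries, DESeq2 1.42.0, limma voom, a replicate block, sex (inferred from Xist and Y-linked counts) as a covariate, male libraries, a block of neighbouring library numbers (gap at most 2), both count columns summed, and leaving out each library. Of the list entries, Msmo1, Hacd2, Hacd3 and Adgre1 were matched under older symbols.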

Additional observations from a re-analysis of the deposited data

Results flagged for a closer look

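In 3 of the 34 tested members 1 wild type library stood away from the other 3 by more than Dixon's 95% limit of 0.829, the gap being taken as a share of the group's range. Chance alone flags about 1 in 20 such groups. For Mvk the share was 0.879, with wild type replicate 4 at 32.5 CPM and the others at 37.2 to 37.8 CPM, and this library was still above all Lmnb1-/- libraries. For Scd1 it was 0.919, with wild type replicate 3 at 68.5 CPM and the others at 46.8 to 48.6 CPM. For Acss2 it was 0.859, with wild type replicate 4 at 10.1 CPM and the others at 4.35 to 5.17 CPM.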

How the results depend on the processing

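The 17 members whose levels are given per library kept their sign under all 18 alternatives, or under the 16 that tested it for Acss2. Srebf2 passed in 14 of the 18 (adjusted p 0.000897 to 0.114, log2 fold change -0.86 to -0.72) and Stard4 in 5 of the 18 (adjusted p 0.00565 to 0.200). The count of members called, 2 with the settings used here, was 6 without a count filter, adding Cyp51, Fdft1, Scd2 and Sqle. It was 5 with DESeq2, adding Fdft1, Scd2 and Sqle. It was 1, Srebf2, with unscaled totals, limma voom, an added term for sex, the male libraries alone, the number-group block and both columns summed. Leaving out each library gave 0 to 5 members. Dropping wild type replicate 1 gave 5, dropping the second or the fourth gave 1, and dropping the third or any Lmnb1-/- library gave 0. Over all genes it gave 279, 40, 4 and 28 without wild type replicates 1 to 4, and 4, 3 and 13 without Lmnb1-/- replicates 1 to 3. Over all genes, 76 with the settings used here (39 higher, 37 lower), 180 passed without a filter, 176 with DESeq2, 46 with limma voom, 38 with the term for sex and 44 with both columns summed. With unscaled totals 47 rose and 26 fell.

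With the replicate block 1 member passed, Srebf2, against 2 without it, and 77 genes in all, while Stard4 had an adjusted p of 0.0551. Wild type replicate 4 has no partner and does not inform that contrast. Same-numbered libraries deviated together only in pair 1 (correlation 0.264, against -0.158 and -0.0898), so the numbers were not taken as pairs. The median of the export genes changed from -0.13 to 0.10 with the number-group block. On leaving out each library, medians ran from -0.36 (without Lmnb1-/- replicate 1) to -0.11 (without replicate 2) for regulators, -0.65 to -0.48 for sterol genes, -0.24 to -0.16 for fatty acid genes and -0.24 to -0.01 for export genes. The cause of these shifts was not tested. Depth limits the scarce members: 3 counts were worth up to 3.10 CPM, near the levels of Abcg1, Acss2 and Tm7sf2.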
